A study of Mus musculus with 14 samples.

Results

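The 9 neurogenic genes Neurog1, Neurog2, Neurog3, Neurod1, Neurod2, Neurod4, Neurod6, Atoh1 and Olig2 were examined for H3K27me3, the repressive histone mark written by Polycomb repressive complex 2 (PRC2). They were found by name among 49943 RefSeq mouse genes, and their signal was taken from the 45 of 74458 H3K27me3 peaks (mm10) that lay within 10 kb of a gene body. The mark was profiled by Cut&Tag, which tethers a transposase to an antibody on intact chromatin, in mouse embryonic stem cells (mESCs) with a deletion at 1 of 3 anchors of Polycomb-associated DNA loops. The cells were G4 mESCs, a hybrid of the strains 129/Sv and C57BL/6, grown on CD1 feeder cells with leukemia inhibitory factor, and CRISPR-Cas9 had removed the anchor from both alleles. The groups were the Hoxa deletion (3 libraries), the Wnt6 deletion (2 libraries) and the Hmx1 deletion (2 libraries). No column of unedited cells was in the table, so each deletion was set against the other deletions. The methods describe edited clones, and the labels give no clone names, so a difference between deletions and one between clones cannot be told apart, and p-values measure only the spread between these libraries.

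These genes encode basic helix-loop-helix (bHLH) transcription factors, which pair with E-proteins and bind E-boxes in DNA. Many of them drive progenitors out of division and into a neural fate. The Neurogenins and Atoh1 act early as determination factors, and the Neurod genes follow in differentiating neurons, while Id and Hes proteins, the latter downstream of Notch, hold the family in check. In mESCs such lineage genes are kept off and are well known Polycomb targets, typically with CpG-rich starts that carry H3K27me3. The study asked whether loss of a loop anchor altered the mark near the deletion and far away on the same chromosome. Neurod6 and Atoh1 share chromosome 6 with the Hoxa cluster, at 3.42 and 12.5 Mb from the stretch of Hoxa genes between Hoxa2 and Hoxa13. No member lies on the chromosome of Wnt6 or of Hmx1.

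The libraries held 6016500 to 36563541 counts over the peak list. In each library the peaks over the deleted genes fell to between 0.101 and 3.18% of the mean of the other deletions, while the remaining libraries ranged from 90.5 to 109% there, so all 7 libraries matched their labels. As a check of the cell type, 7 of 10 genes active in mESCs had a peak within 10 kb, with a median of 7.17 CPM (counts scaled to library size) per kb of peak, and Tdgf1, Dppa5a and Lin28a had none. The median over protein-coding genes with a peak was 10.9 CPM per kb. Sox2 (18.5) and Esrrb (17.7) lay above it, and the rest of the 7 lay below. All 8 fibroblast genes, looked at because of the feeder cells, had peaks, with a median of 48.9 CPM per kb. Each level is an average over the cells of a library, so that fewer cells with the mark and less mark per cell cannot be told apart.

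The 9 genes differed in the sequence at their start and in whether a peak lay over it. Promoter windows from RefSeq (GRCm38.p6, each running 5′ to 3′ along its gene, chiefly upstream of the start) are shown for 4 genes that span this range, with CG dinucleotides in capitals. Neurog1 (chr13:56252131-56252430, minus strand) had the most CG dinucleotides and the densest start peak of the 9 genes. Neurog2 (chr3:127632886-127633185, plus strand) had fewer CG dinucleotides under a peak of nearly the same density. The RefSeq gene body of Neurog2 begins at 127632733, upstream of this window, whereas the start used for the window was 127633136. Neurod4 (chr10:130280205-130280504, minus strand) had a weak peak, and Neurod6 (chr6:55681214-55681513, minus strand) had no peak over its start.
Neurog1: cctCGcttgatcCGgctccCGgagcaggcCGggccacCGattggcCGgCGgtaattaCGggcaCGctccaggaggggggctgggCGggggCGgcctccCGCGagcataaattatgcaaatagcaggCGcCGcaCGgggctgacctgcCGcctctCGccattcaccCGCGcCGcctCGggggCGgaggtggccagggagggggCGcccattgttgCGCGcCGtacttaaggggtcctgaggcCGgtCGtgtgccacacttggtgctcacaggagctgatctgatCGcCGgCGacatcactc
Neurog2: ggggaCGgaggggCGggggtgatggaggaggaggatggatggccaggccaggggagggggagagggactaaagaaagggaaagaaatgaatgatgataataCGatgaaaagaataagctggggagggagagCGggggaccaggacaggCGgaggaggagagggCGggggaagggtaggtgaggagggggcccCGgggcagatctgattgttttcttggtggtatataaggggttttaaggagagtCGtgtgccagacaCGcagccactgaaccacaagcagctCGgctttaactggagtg
Neurod4: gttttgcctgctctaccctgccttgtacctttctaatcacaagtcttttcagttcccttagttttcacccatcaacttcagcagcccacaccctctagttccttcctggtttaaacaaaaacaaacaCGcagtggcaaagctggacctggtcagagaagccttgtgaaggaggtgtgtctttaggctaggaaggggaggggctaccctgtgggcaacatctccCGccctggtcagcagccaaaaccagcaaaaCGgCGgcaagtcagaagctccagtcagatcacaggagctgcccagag
Neurod6: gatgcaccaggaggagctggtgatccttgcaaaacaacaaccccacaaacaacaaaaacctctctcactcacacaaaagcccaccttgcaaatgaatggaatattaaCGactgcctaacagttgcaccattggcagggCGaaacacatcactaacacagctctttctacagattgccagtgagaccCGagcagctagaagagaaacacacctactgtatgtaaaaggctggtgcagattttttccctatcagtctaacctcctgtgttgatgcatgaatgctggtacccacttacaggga

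The Neurog1 window held 32 CG dinucleotides, an observed over expected ratio of 0.891, and the peak over it had a mean of 116 CPM per kb over the 7 libraries. The Neurog2 window held 10, a ratio of 0.570, under a peak of 101 CPM per kb. The Neurod4 window held 4 and the Neurod6 window 3, with ratios of 0.197 and 0.192. A second Neurod4 start in the table had a ratio of 0.318. The CpG-poor pair thus had the weakest start peak, 10.9 CPM per kb at Neurod4, and none at Neurod6. Among all 21263 RefSeq promoter windows of protein-coding genes, the median ratio was 0.567 and 55.9% overlapped a peak. That share was 9.88% of the 4695 windows with a ratio under 0.2, 45.2% of the 6431 windows between 0.2 and 0.6, and 84.1% of the 10137 windows at 0.6 or above. Where a peak overlapped, the median density was 9.06, 14.4 and 11.6 CPM per kb in the same order. Density thus did not rise steadily with the ratio, and the 10.9 of Neurod4 lay among these medians.

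The other 5 genes had ratios of 0.547 for Neurog3, 0.697 for Neurod2, 0.815 for Olig2, 0.837 for Neurod1 and 0.840 for Atoh1. CpG content did not order the levels among them, since Olig2 and Neurod1, with high ratios, had start peaks of 54.4 and 55.0 CPM per kb, below the 83.5 of Neurog3 and the 91.3 of Atoh1. The Neurod2 window, at the start of a gene of cortical and hippocampal neurons, overlapped no peak despite its ratio. Its start lay in a gap between a peak 0.422 kb upstream and a peak beginning 0.624 kb inside the gene, which had 102 CPM per kb. The E-box letters CANNTG, which read the same on both strands and overlap no other motif searched, occurred in the windows of Neurog1, Neurog3, Neurod1, Neurod2 and Neurod6 and at the second Neurod4 start, and in 69.0% of all windows. They did not occur in those of Neurog2, Atoh1 or Olig2, which says only that these letters are absent there.

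**Figure D1:**
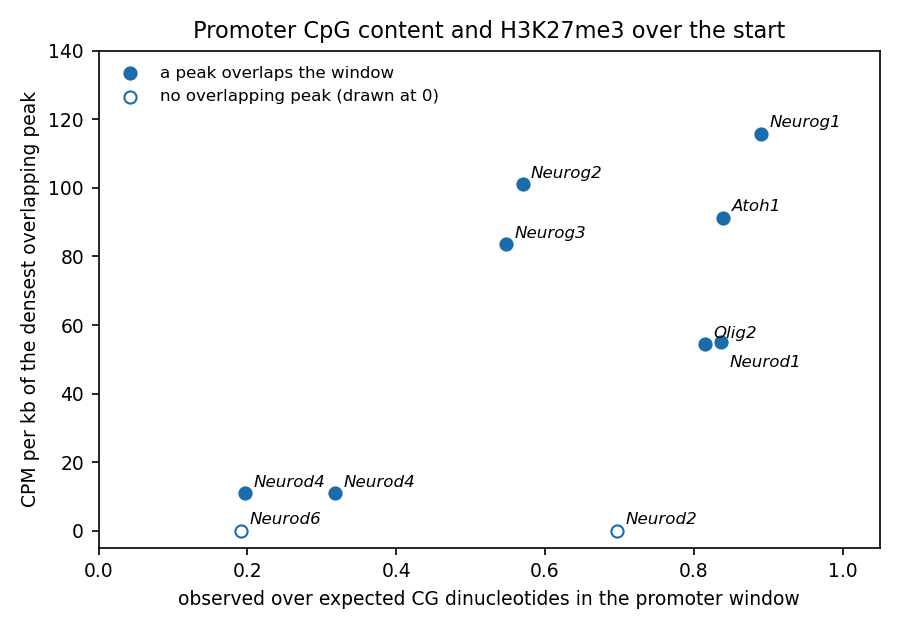
Observed over expected CG dinucleotides in the RefSeq promoter window of each gene (x axis) against the mean CPM per kb, over 7 libraries, of the densest peak overlapping that window (y axis). Each point is a start site, and Neurod4 has 2; open points mark windows with no overlapping peak, drawn at 0. Neurod6 and Neurod4 sit at the lower left, and Neurod2 is at 0 despite a ratio of 0.697.

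Of the 45 peaks, 7 covered the start of a gene, 20 lay upstream, 5 lay in the gene body and 13 lay beyond the 3′ end. They were broad and dense, with widths of 285 to 2341 bp and a median of 783 bp, against 476 bp over all peaks. Their median density was 52.1 CPM per kb, against 7.74 over all peaks, and 95.2% of all peaks were less dense than this median. The median member peak had 266 counts at the lowest depth and 1420 at the highest, and the smallest count among them was 8.

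**Figure D2:**
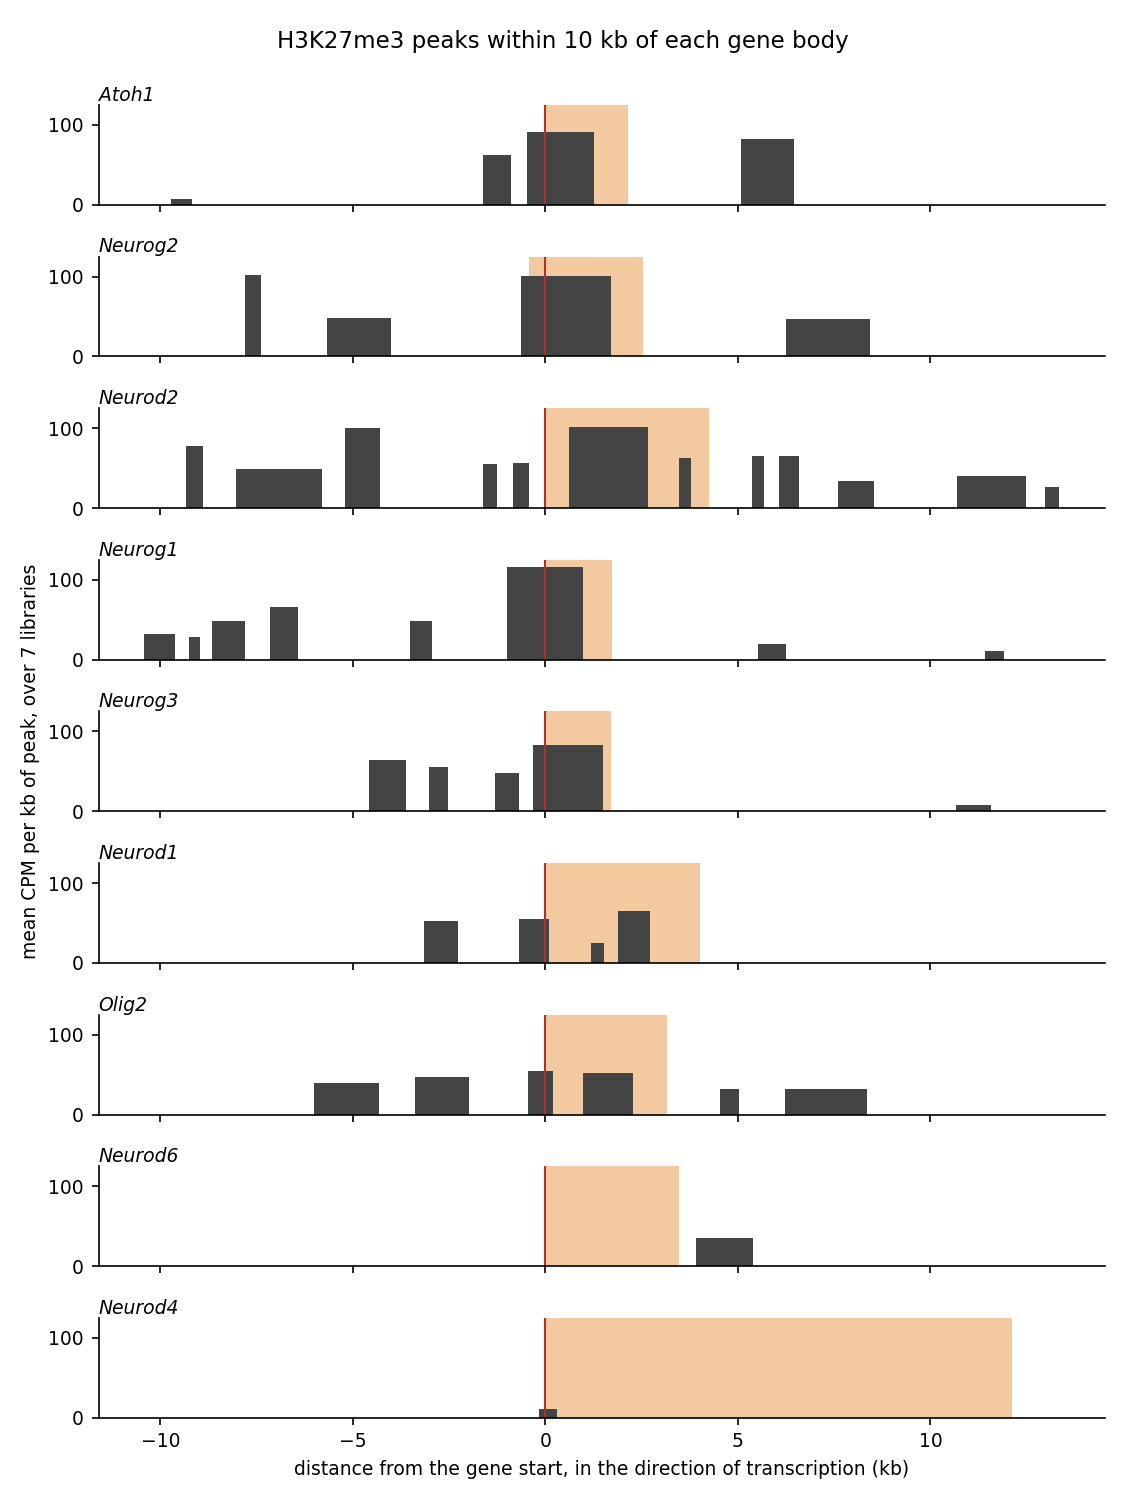
H3K27me3 peaks within 10 kb of each gene body, by distance from the RefSeq start in the direction of transcription (x axis, kb) and mean CPM per kb of peak over 7 libraries (y axis). The red line is the start and the shaded span the gene body. The Neurogenins and Atoh1 have their broadest peak over the start, Neurod6 has a single peak beyond its 3′ end, and Neurod4 a single weak peak of 10.9 CPM per kb.

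In each of the determination factors the peak over the start held the largest share of the signal. Neurog2, which promotes cortical and sensory neurons, had 4 peaks, and the peak over its start (chr3:127632508-127634849) held 51.4% of its signal. A narrow peak beginning 7.40 kb upstream of it (chr3:127625342-127625738) was as dense, at 102 CPM per kb. Neurog1, a determination factor of cranial sensory neurons, had 8 peaks, of which the one over the start (chr13:56251195-56253169) held 57.6% of the signal. Neurog3, which specifies the endocrine cells of the pancreas, had 5 peaks with 54.6% of the signal over the start (chr10:62132770-62134580). Atoh1, needed for cerebellar granule cells and for hair cells of the inner ear, had 4 peaks, with 49.3% over the start (chr6:64728658-64730390) and 35.3% in a peak 5.08 kb past it (chr6:64734202-64735580).

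In Olig2 and in the differentiation genes other than Neurod4, the strongest peak did not lie over the start. Neurod2 had 12 peaks, of which the strongest (chr11:98326993-98329021, in the gene body) held 30.8% of the signal. Neurod1, a factor of neuronal and endocrine differentiation, had 4 peaks, with 28.1% of the signal over the start (chr2:79456555-79457323) and 35.6% in the gene body (chr2:79453922-79454753). Olig2, which specifies motor neurons and oligodendrocytes, had 6 peaks, with 11% over the start (chr16:91225093-91225744). Neurod6, a gene of cortical pyramidal neurons, had a single peak (chr6:55675882-55677342) 3.92 kb past its start and beyond its 3′ end. Neurod4, a gene of retinal and midbrain neurons, had a single peak over its start (chr10:130279945-130280431). Long noncoding or predicted genes covered some of these peaks (4930550C17Rik near Neurog1, Gm40147 near Neurog2, Gm33099 near Neurod2, Gm35851 at Atoh1 and Gm52261 near Olig2), and their signal cannot be told apart from that of the neighbouring member.

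Summed over its peaks and divided by their length, H3K27me3 was highest at Atoh1, with 73.4 ± 3.75 CPM per kb (SD, n = 7 libraries). Neurog2 followed with 69.9 ± 3.49, Neurod2 with 63.2 ± 3.33, Neurog1 with 62.2 ± 4.26, Neurog3 with 57.8 ± 2.89 and Neurod1 with 53.4 ± 5.28 CPM per kb. The lowest 3 were Olig2 with 41.8 ± 2.54, Neurod6 with 35.5 ± 2.07 and Neurod4 with 10.9 ± 2.02 CPM per kb. Among 17003 protein-coding genes with a peak, whose median was 10.9 CPM per kb, Atoh1 stood at percentile 99.0, Olig2 at 91.0, Neurod6 at 87.3 and Neurod4 at 49.97. Most neighbours in this order were not separated by their spread: the ranges over the 7 libraries overlapped for every neighbouring pair except Olig2 over Neurod6 and Neurod6 over Neurod4. Neurod2 exceeded Neurog1 in only 3 of 7 libraries and Neurog3 exceeded Neurod1 in 6 of 7, whereas each other pair kept its order in all 7. The order depended on the measure: per kb of the whole gene window Neurod2 was highest, at 27.7 CPM per kb, and Atoh1 reached 14.5.

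**Figure D3:**
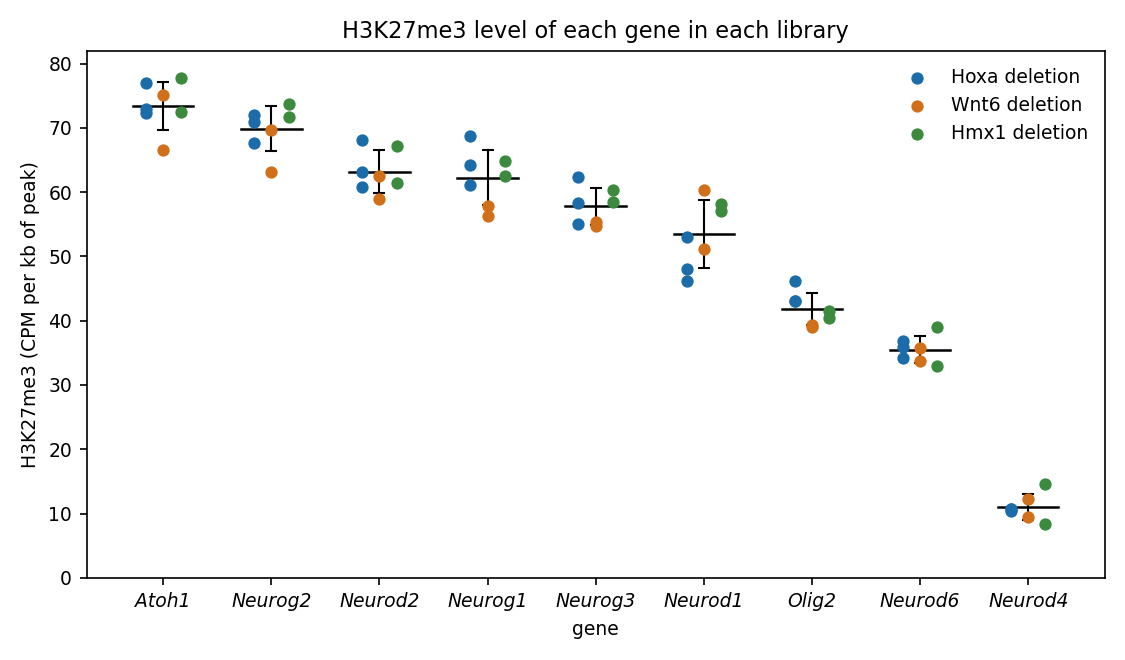
H3K27me3 level of each gene, in CPM per kb of peak (y axis), in each of the 7 libraries, coloured by deletion. The bar and error bar are the mean and SD over the 7 libraries. Points of the 3 deletions overlap at most genes, and Neurod4, at 10.9 ± 2.02, lies below all others.

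None of the 45 peaks changed in the Hoxa deletion, at a fold change above 2 and an adjusted p under 0.05 in edgeR's quasi-likelihood test, against 1.55% of the 74441 peaks tested. None changed in the Wnt6 deletion, where 0.0497% of all peaks did, or in the Hmx1 deletion, where 0.0282% did. DESeq2 likewise called 0 member peaks in each comparison. At an unadjusted p under 0.05 in edgeR the members counted 6, 2 and 1 of 45 in the Hoxa, Wnt6 and Hmx1 deletion, where 20.8, 5.20 and 8.96% of all peaks passed. With the adjusted p alone, 1 of 45 passed in the Hoxa deletion, where 8.52% of all peaks did, and 0 passed in the Wnt6 and Hmx1 deletions, where 0.0564% and 0.0309% did. In the latter pair so few peaks passed anywhere that a count of 0 says little about these genes.

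The intervals say more about size. The 95% confidence interval of the fold change lay inside 2-fold for all 45 member peaks in each comparison, and for 79.7, 76.9 and 71.5% of all peaks tested in the Hoxa, Wnt6 and Hmx1 deletion. Strong peaks have narrow intervals, so the members' density bears on that count. The median log2 fold change of the members was 0.028 in the Hoxa, -0.073 in the Wnt6 and 0.022 in the Hmx1 deletion, beside -0.005, -0.003 and -0.006 over all peaks. Positive values were found for 29, 10 and 30 of the 45 peaks. The comparisons share their libraries, so these counts are not independent of each other. Peaks of the same gene need not be independent either, and Neurod2 held 12 and Neurog1 8 of the 45. In the Wnt6 deletion, 9 of 39 peaks of the other neural bHLH genes listed below were positive. Of the peaks of targets and neuronal genes listed below, 52 of 72 were positive in that deletion, but Rbfox3 alone held 42 of those 72. The share of positive peaks over all peaks was not counted, so neither list can be read as moving apart from the background.

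**Figure D4:**
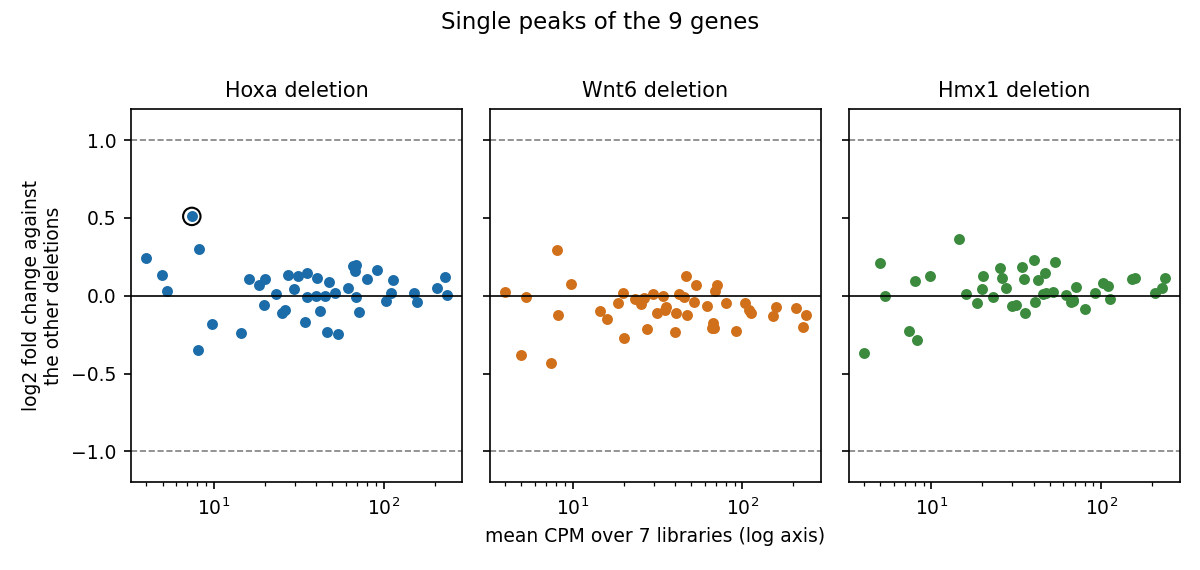
Log2 fold change of each of the 45 peaks in each deletion against the other deletions (y axis) by mean CPM over 7 libraries (x axis, log scale). Dashed lines mark a 2-fold change in either direction, and the circle marks the peak with an adjusted p under 0.05. All points lie between the dashed lines, and the circled Neurog3 peak is among the weakest.

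The peak that passed the adjusted p alone lay 10.7 kb downstream of the start of Neurog3 (chr10:62143743-62144669) and held 2.68% of that gene's signal. It measured 10.2, 9.59 and 7.28 CPM in the 3 Hoxa deletion libraries, 5.87 and 6.06 CPM in the Wnt6 deletion, and 5.92 and 7.04 CPM in the Hmx1 deletion. The Hoxa deletion libraries were thus all above the rest, the lowest by a small margin. The log2 fold change was 0.51 (SE 0.160, edgeR adjusted p = 0.0346). With DESeq2 the log2 fold change was 0.52 with an adjusted p of 0.0622, and the edgeR adjusted p was 0.155 without replicate 1 and 0.193 without replicate 2 of the Hoxa deletion. Leaving out a Wnt6 deletion library gave 0.0623 (replicate 1) and 0.127 (replicate 2). The peak over the start of Neurog3 had a log2 fold change of 0.02 (adjusted p = 0.934). The smallest adjusted p of a member peak was 0.920 in the Wnt6 deletion, shared by this downstream peak and others, and 0.538 in the Hmx1 deletion, for the Neurog1 peak at chr13:56245933-56246659 (log2 fold change 0.36).

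Counts were also summed over the peaks of each gene and tested over 30959 gene windows. None of the 9 members changed at both thresholds, against 0.733% of all windows in the Hoxa, 0.0388% in the Wnt6 and 0.0258% in the Hmx1 deletion. With the adjusted p alone, 1 of 9 passed in the Hoxa deletion, where 18.1% of all windows did, and 0 in the Wnt6 and Hmx1 deletions, where 0.0420% and 0.0614% did. All 27 confidence intervals lay inside 2-fold, as did those of 91.4, 89.8 and 86.8% of all windows in the Hoxa, Wnt6 and Hmx1 deletion, so the members' count is near the background. The spread over the 7 libraries was 5.00 to 9.87% of the mean for 8 genes and 18.5% for Neurod4, whose single peak had the fewest counts.

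Neurod1 was the member below the adjusted threshold. It measured 150, 135 and 130 CPM in the Hoxa deletion libraries, 170 and 144 CPM in the Wnt6 deletion, and 164 and 161 CPM in the Hmx1 deletion. The groups overlapped, since the highest Hoxa deletion library exceeded the lower Wnt6 deletion library. Their means were 138 ± 9.995 (SD, n = 3), 157 ± 18.0 (n = 2) and 162 ± 2.06 CPM (n = 2), a log2 fold change of -0.25 in the Hoxa deletion (SE 0.0629, edgeR adjusted p = 0.0040), or 0.842-fold with an interval of 0.770 to 0.920. None of its 4 peaks passed by itself, with adjusted p of 0.130 to 0.662 in that fit. Without replicate 3 of the Hoxa deletion the adjusted p was 0.0621, and with the replicate number as a block it was 0.0796.

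The determination factors were compared in the same way. Neurog1 measured 439, 390 and 410 CPM in the Hoxa deletion libraries, 369 and 360 CPM in the Wnt6 deletion, and 399 and 414 CPM in the Hmx1 deletion. Both Wnt6 deletion libraries were below the other 5, at a log2 fold change of -0.15 (SE 0.0644, edgeR adjusted p = 0.813). How common such a separation is over all windows was not counted. Neurog2 measured 475, 446 and 467 CPM in the Hoxa deletion, 459 and 417 CPM in the Wnt6 deletion, and 473 and 486 CPM in the Hmx1 deletion. These groups overlapped, with log2 fold changes of -0.03, -0.08 and 0.12 in the 3 deletions in that order (edgeR adjusted p = 0.785, 0.872 and 0.272). Neurog3 measured 299, 279 and 264 CPM in the Hoxa deletion, 265 and 262 CPM in the Wnt6 deletion, and 280 and 289 CPM in the Hmx1 deletion. Its log2 fold changes were -0.01, -0.08 and 0.09 (edgeR adjusted p = 0.932, 0.892 and 0.546).

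Olig2 showed an order among the groups that did not pass the test. It measured 357, 332 and 332 CPM in the Hoxa deletion libraries, 301 and 303 CPM in the Wnt6 deletion, and 312 and 320 CPM in the Hmx1 deletion. The 3 groups did not overlap, but the log2 fold change was 0.09 in the Hoxa deletion (SE 0.0597, edgeR adjusted p = 0.323), -0.11 in the Wnt6 deletion (adjusted p = 0.850) and -0.004 in the Hmx1 deletion (adjusted p = 0.986). The share of all windows whose groups separate in this way was not counted, so the order cannot be read as particular to Olig2. With library totals in place of the scaling factors, the log2 fold change in the Hoxa deletion was 0.15 with an adjusted p of 0.0229. Of the other differentiation genes, Neurod2 ranged from 627 CPM in a Wnt6 deletion library to 725 CPM in a Hoxa deletion library, with log2 fold changes of -0.01, -0.06 and 0.07. Neurod4 ranged from 4.05 to 7.10 CPM, both extremes in the Hmx1 deletion, and its intervals were the widest, at 0.726-fold to 1.44-fold in that deletion.

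Neurod6 and Atoh1 are the members on chromosome 6. The paper reports that distant sites losing the mark in the Hoxa deletion lacked EZH2, the PRC2 methyltransferase, with unaltered sites in between. It adds that such sites tended to lie in the same compartment. EZH2 occupancy and compartment were not examined here for Neurod6 or Atoh1, so their values do not test that effect of distance. Neurod6 measured 49.96, 52.3 and 53.7 CPM in the Hoxa deletion libraries, 52.3 and 49.2 CPM in the Wnt6 deletion, and 57.0 and 48.1 CPM in the Hmx1 deletion. Atoh1 measured 336, 316 and 318 CPM in the Hoxa deletion, 328 and 291 CPM in the Wnt6 deletion, and 316 and 339 CPM in the Hmx1 deletion. The Hoxa deletion libraries lay within the range of the others at both genes. The fold change in the Hoxa deletion was 0.987 at Neurod6 (interval 0.883 to 1.10, edgeR adjusted p = 0.914) and 0.984 at Atoh1 (interval 0.903 to 1.07, edgeR adjusted p = 0.855). A difference within those bounds remains compatible with these libraries.

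**Figure D5:**
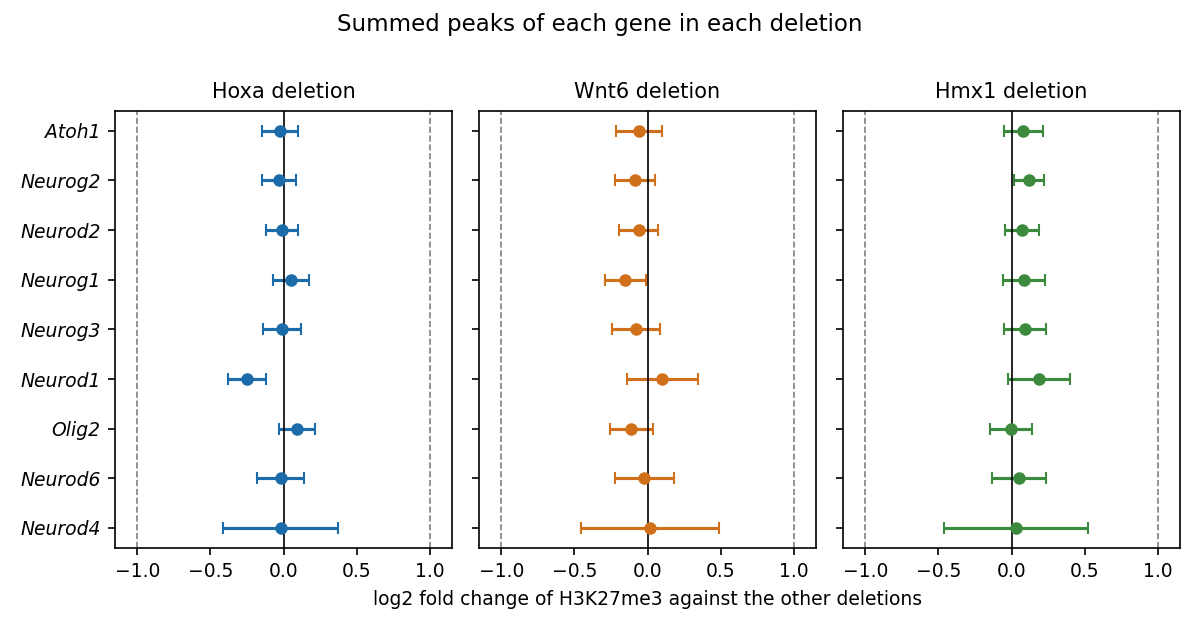
Log2 fold change of the summed peaks of each gene in each deletion against the other deletions (x axis), with 95% confidence intervals from edgeR's quasi-likelihood fit. Dashed lines mark a 2-fold change. All 27 intervals lie between the dashed lines, and Neurod1 in the Hoxa deletion, at -0.25, is the only value below an adjusted p of 0.05.

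For each member, the protein-coding gene with the most similar CPM per kb over the 7 libraries was found by the root mean square (RMS) difference of log2 values, among at least 17000 genes that shared no peak with it. Atoh1 was closest to Dlx1 (RMS 0.030), Neurog2 to Tmem200c (0.021), Neurod2 to Hoxd11 (0.027), Neurog1 to Gata2 (0.037) and Neurog3 to Hoxb2 (0.032). Neurod1 was closest to Cabp7 (0.055), Olig2 to Pnmal1 (0.026) and Neurod6 to Slc16a10 (0.044). The nearest gene was 1 of many at a similar level: 58 to 164 genes lay within an RMS of 0.1 of each of these 8 members. Neurod4 had no gene within an RMS of 0.1, the nearest being Tmem41b (0.111).

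The genes that work with the family were read from lists. None of the peaks of any list changed at both thresholds in any deletion, and in the Wnt6 and Hmx1 deletions none passed the adjusted p alone. Beside the median level of the members, 57.8 CPM per kb, 10 other neural bHLH genes had a median of 49.7, led by Ptf1a (85.1), Olig3 (78.0) and Bhlhe22 (71.0). The 3 E-protein partners, which are widely expressed, had a median of 11.3, with 23.8 at Tcf12, 11.3 at Tcf3 and 6.45 at Tcf4. Of the 9 targets and neuronal genes, the 8 with a peak had a median of 22.5, led by Insm1 (71.6), a zinc-finger target of proneural factors. Dcx, a microtubule protein of young neurons, had no peak within 10 kb.

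Peaks with an adjusted p under 0.05 in the Hoxa deletion, 8.52% of all peaks tested, were counted in these lists. Over all peaks tested, 1153 passed both thresholds in that deletion, of which 421 were higher and 732 lower. The split by direction at the adjusted p alone was not counted over all peaks. Of 36 peaks of the Id, Hes and Hey genes, 6 were higher and 1 lower, and of 45 peaks of Notch ligands and receptors, 8 were higher and 2 lower. None of 10 E-protein peaks passed, and of 72 peaks of targets and neuronal genes, 2 were higher and 1 lower. Over the 36 peaks of the Id, Hes and Hey genes the median log2 fold change was 0.004, and 18 were positive. Genes were named here after their values were seen. The lower peak among those 36 was at Id2. It measured 45.1 CPM in the Hoxa, 53.5 in the Wnt6 and 58.0 in the Hmx1 deletion (edgeR adjusted p = 0.0450). The summed Id2 window had a log2 fold change of -0.23 in the Hoxa deletion (edgeR adjusted p = 0.0038). Of the 6 higher peaks 3 were at Id1, an inhibitor that binds E-proteins, and there the Hmx1 deletion was lowest: the strongest measured 11.1 ± 0.414 CPM in the Hoxa (SD, n = 3), 9.68 ± 0.572 in the Wnt6 (n = 2) and 5.69 ± 1.04 in the Hmx1 deletion (n = 2). The summed Id1 window had a log2 fold change of -0.95 in the Hmx1 deletion (edgeR adjusted p = 0.0487) and 0.55 in the Hoxa deletion (adjusted p = 0.0053). The rest were at Hes1, the Notch effector that represses proneural genes, which had 3 of its 4 peaks higher in the Hoxa deletion. The strongest (chr16:30066249-30067439) measured 38.7, 33.7 and 35.8 CPM in the Hoxa deletion libraries, 18.7 and 18.9 CPM in the Wnt6 deletion, and 19.6 and 16.4 CPM in the Hmx1 deletion. The groups were well apart, with a log2 fold change of 0.98 (SE 0.111, edgeR adjusted p = 7.19e-09), just under the 2-fold threshold.

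The Notch ligand genes moved in both directions. Dll3, whose product acts inside the cell against Notch signalling, had 3 higher peaks, the strongest at 88.5 ± 8.50 CPM in the Hoxa deletion (SD, n = 3) against 69.1 ± 8.08 in the Wnt6 (n = 2) and 63.8 ± 2.26 in the Hmx1 deletion (n = 2; edgeR adjusted p = 0.0014). Jag1 had 2 higher peaks, the stronger at 76.8 ± 2.13 CPM against 55.2 ± 7.17 and 55.3 ± 4.59 (edgeR adjusted p = 2.6e-04). A peak of Dll1, a ligand induced by proneural factors, was lower, at 28.1 CPM against 36.6 and 41.1 (edgeR adjusted p = 0.0031). Among the genes active in mESCs, 3 of 40 peaks were higher and none lower in the Hoxa deletion, 2 at Klf4 and 1 at Esrrb, and none of 48 fibroblast peaks passed. Over all peaks tested 8.52% passed, so the mESC count is near the background. At Klf4 the stronger peak measured 22.7 CPM against 13.2 and 11.9 (edgeR adjusted p = 5.2e-06). Summed over the mESC list, the libraries measured 397 to 410 CPM in the Hoxa, 339 to 353 CPM in the Wnt6 and 360 to 376 CPM in the Hmx1 deletion. The fibroblast list summed to 1616 to 1719, 1556 to 1716 and 1722 to 1762 CPM in the same order. In the mESC list, Esrrb alone held 22 of the 40 peaks and a mean of 248 CPM, so those sums rest largely on it. Its summed window differed by only 0.07 in log2 in the Hoxa deletion (edgeR adjusted p = 0.471). Among the mESC genes only the Klf4 window passed there, at 0.55 (edgeR adjusted p = 9.4e-06). Only the Zfp42 window was lower there, at -0.60 (edgeR adjusted p = 0.0854). The part of either list in the differences at the Notch genes was not tested.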

How the data were processed

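H3K27me3 Cut&Tag libraries of 3 mESC deletions were analysed from a single table in which the authors deposited raw counts over a shared peak list, and 7 IgG libraries were not analysed here. The submitters' processing notes name Trimmomatic, Bowtie2, SAMtools, Picard, MACS2, deepTools and mm10; which libraries the peaks were called on is not given in the sources used here. A peak was assigned to a gene within 10 kb of its RefSeq body. The members and lists were chosen with earlier results of these data known. A result of a further list is not reported here. Every member was described; for each, the start peak, the densest peak and the nearest gene in level were named, with at most 3 genes per further list. Counts were tested in edgeR 4.0.16 (R 4.3.3; filterByExpr, TMM, quasi-likelihood), each deletion against the others pooled, with Benjamini-Hochberg adjustment over all peaks or windows. Standard errors were taken from the fold change and its F statistic. Levels are TMM-scaled CPM. DESeq2 1.42.0 was an alternative. Fits were tested on simulated data. PCR reads carry no molecular identifiers, so intervals rest on the spread between libraries.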

Additional observations from a re-analysis of the deposited data

How the results depend on the processing

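The count of 0 member peaks past both thresholds was found in each comparison under every alternative run, including DESeq2, other scaling, other filters, windows of 0, 5 and 25 kb and each library left out (range 0 to 0), except that without a fold change minimum the Hoxa deletion had 1. With each library left out, the median log2 fold change of the members ranged from -0.004 to 0.060 in the Hoxa, from -0.131 to -0.032 in the Wnt6 and from 0.0053 to 0.076 in the Hmx1 deletion. In the Hmx1 deletion, where the median was 0.022, it moved by more than the SD between the libraries of that deletion in 4 alternatives: against the Wnt6 deletion alone (0.090), with a window of 0 kb (0.071), without replicate 1 of the Hoxa deletion (0.070) and without replicate 1 of the Hmx1 deletion (0.076). The cause was not tested. With the replicate block the medians were 0.046, -0.077 and 0.032 in the Hoxa, Wnt6 and Hmx1 deletion, and 0 member peaks were called. The labels do not say whether libraries with the same replicate number shared a batch. Replicate 1 had the fewest counts in each deletion (8656908 in the Hoxa, 9982841 in the Wnt6 and 6016500 in the Hmx1 deletion). Same-numbered libraries of different deletions had correlations of deviations from -0.042 to 0.083. In a group of 2 libraries the deviations mirror each other, so these correlations cannot decide whether a batch was shared. The tube numbers in the labels were tried as a block after seeing the data, as were offsets that depend on abundance, and neither called a member peak. For Neurod1 in the Hoxa deletion, the log2 fold change ranged from -0.30 to -0.19 and the adjusted p was under 0.05 in 19 of 21 alternatives; the adjusted p of its window in the Hmx1 deletion was 0.0456 with a term for each genotype and 9.5e-04 against the Hoxa deletion alone. Neurog1 (0.0196) and Olig2 (0.0063) passed the adjusted p in the Hoxa deletion with abundance-dependent offsets. With 2 or 3 libraries a group, differences inside the intervals given remain compatible with the data.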
